A study of Mus musculus with 7 samples.

Results

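The genes described here are 10 genes of contractile smooth muscle cells and of pericytes, the contractile cells that wrap small blood vessels: Acta2, Myl9, Myh11, Mylk, Tagln, Cnn1, Synpo2, Des, Mustn1 and Pdgfrb. They were chosen by name for these roles and not by their values, although earlier results of these data were known when the list was drawn up. On the array they are represented by 20 of 45037 probe sets, and they make up 10 of the 18193 genes that could be named. Expression was measured on Affymetrix Mouse Genome 430 2.0 arrays in luminal cells sorted from mouse prostates, with 3 wild-type (WT) arrays, lettered A, B and C, and 4 arrays from T-ETV1 mice, lettered A, B, C and D. The T-ETV1 allele places a human ETV1 cDNA, which encodes an ETS transcription factor, under the endogenous Tmprss2 promoter. Cells of both groups were sorted as CD49f positive, Sca1 negative and without the lineage proteins Ter119, CD45 and CD31. T-ETV1 cells were in addition sorted as GFP positive, so that genotype and GFP gate cannot be told apart. The labels give no age or strain, the level of the human cDNA was not analysed here, and the series text speaks of 3 biological replicates whereas 4 T-ETV1 arrays were available.

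In the prostate, smooth muscle forms the fibromuscular layer around the gland ducts and the wall of arteries, while pericytes lie on capillaries. These cells contract when calcium and calmodulin activate a kinase that phosphorylates the light chain of smooth muscle myosin, which then pulls on actin filaments anchored to dense bodies and to an intermediate filament scaffold. The genes of this apparatus are switched on together by serum response factor (SRF) and its cofactor myocardin. SRF binds a short DNA motif called the CArG box. Luminal cells are secretory epithelial cells and are not known as a contractile cell type. None of the surface proteins in the sort marks smooth muscle or pericytes specifically.

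Across the 10 genes, levels were highest on WT C in every case, and the mean of the T-ETV1 arrays lay under the mean of the WT arrays in all 10 genes, against 55.6% of all genes, although in Cnn1 and Mylk this turned when arrays were centred on their medians. Without WT C 9 of the 10 had a lower mean, and without both C arrays 8. The median log2 difference, T-ETV1 minus WT, was -1.54 over the 10 genes and -0.03 over all genes. No gene passed the test: 0 of the 10 had a limma adjusted p under 0.05, as had 0 of 18193 genes (0% of them), and the smallest adjusted p was 0.581 among the 10 and 0.485 among all genes. At an unadjusted p under 0.05 there were 5 of the 10, all lower, beside 4.12% of all genes that were lower at that level, and 1113 genes in either direction. Values are intensities on the linear scale of the deposited table, differences are on the scale of log2(intensity + 16), and this scale understates differences between low values. Levels of different probe sets depend on their probes, so no gene is compared with another by level. The summed intensity of a list weighs its brightest probe sets most and serves only to compare arrays.

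**Figure D1:**
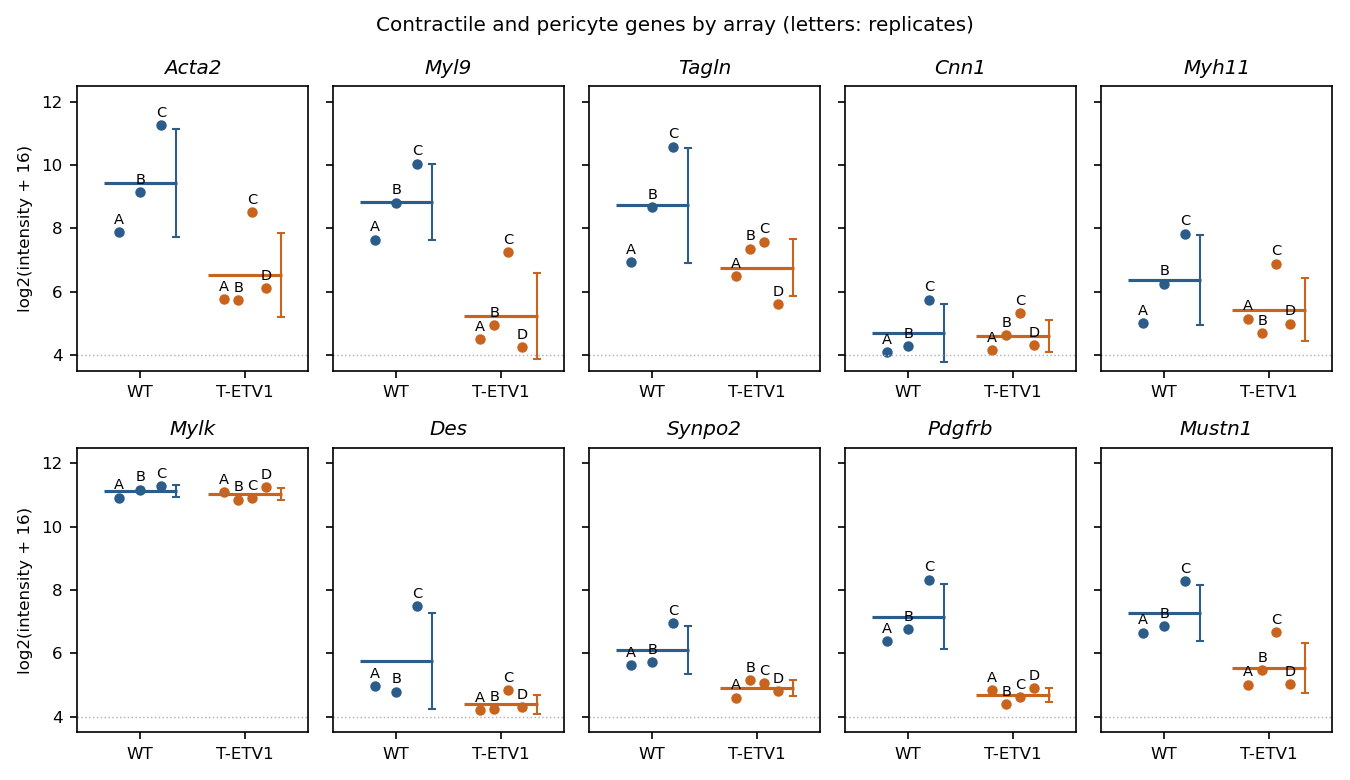
Log2(intensity + 16) of the 10 genes on each array, with the mean (line) and SD (bar) of the 3 WT and 4 T-ETV1 arrays and letters for the replicates; the dotted line at 4 is an intensity of 0. WT C is the highest array for every gene, and T-ETV1 C is the highest T-ETV1 array for 7 of the 10.

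The array median intensity lay between 48.5 and 73.7, with WT C the highest, and between 30.4% and 34.7% of all probe sets on an array were under an intensity of 16. The luminal markers measured here were level between groups: the summed intensity of 8 of them was between 64360 and 68319 in WT and between 62864 and 69867 in T-ETV1. The C arrays stood apart from the others of their group in many genes of other cell types, so values without them are given for each of the 10 genes and for each gene list, an addition for the lists made after the data were seen. Fewer cells of a type and less RNA per cell cannot be told apart in these sorted pools.

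Among the genes of the actin and myosin machinery, Acta2 encodes smooth muscle alpha-actin, the main actin of the contractile filaments. Its highest probe set is of a type (suffix s) that can match more than one transcript, so that related actins may add to it. Its intensity was 220.5, 554 and 2458 on WT A, B and C, and 38.4, 37.0, 351 and 53.7 on T-ETV1 A, B, C and D. T-ETV1 C lay above WT A, so the groups overlapped, while the other T-ETV1 arrays were under all WT arrays. The WT arrays averaged 9.44 ± 1.71 (SD, n = 3) on the log2 scale and the T-ETV1 arrays 6.53 ± 1.34 (SD, n = 4), a difference of -2.90 ± 0.99 (SE; limma adjusted p = 0.768). Acta2 differed by -1.99 without WT C, by -3.57 without T-ETV1 C and by -2.65 without both.

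Myl9 encodes the regulatory light chain of smooth muscle myosin, whose phosphorylation starts contraction. Its intensities were 185, 436 and 1038 in WT A to C, next to 6.70, 14.6, 136 and 3.08 in T-ETV1 A to D. All 4 T-ETV1 arrays were under all WT arrays, and T-ETV1 C, the highest of its group, came closest. This was the largest difference of the 10 genes, -3.60 ± 0.87 (SE; adjusted p = 0.628). Its size depends on the constant added before taking logs, since 3 of the T-ETV1 values were under 16: it was -4.77 with a constant of 1 and -2.47 with 64. Myl9 differed by -3.00 without WT C, by -4.27 without T-ETV1 C and by -3.67 without both. On T-ETV1 D the Myl9 probe set ranked at the 6.66th percentile of the array, compared with the 63.8th percentile on WT A.

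Myh11 encodes the heavy chain of smooth muscle myosin, a defining protein of mature smooth muscle. Its intensities were 16.1, 60.3 and 213 in WT A to C, and 19.5, 9.69, 103 and 15.9 in T-ETV1 A to D. WT A lay within the range of the T-ETV1 arrays, and only the C arrays and WT B were above 50% of the probe sets of their array or close to it, at the 61.9th, 55.2nd and 49.8th percentile for WT C, T-ETV1 C and WT B. The difference was -0.94 ± 0.79 (SE; adjusted p = 0.906) and came to -0.20 without WT C and to -0.69 without both C arrays.

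Mylk encodes the myosin light chain kinase that phosphorylates the product of Myl9. The gene makes a smooth muscle form and a longer form found in many other cells, and which form each of its 3 probe sets measures was not analysed here. On its highest probe set the intensities were 1913, 2285 and 2472 in WT A to C and 2176, 1833, 1898 and 2410.2 in T-ETV1 A to D. These values were close together in both groups, at the 89.8th percentile or above on every array, and differed by -0.10 ± 0.15 (SE; adjusted p = 0.954), turning to 0.04 after median centring and to 0.02 without both C arrays. The second probe set of Mylk had a difference of -0.37 ± 0.20 and the third one of 0.04 ± 0.17. Mylk therefore did not share the pattern of Acta2 and Myl9 over the arrays: WT C was only 0.24 (log2) above the mean of WT A and B for Mylk, and 2.75 above it for Acta2.

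Of the genes for proteins that bind the actin filament, Tagln encodes transgelin (SM22 alpha), an early marker of smooth muscle. Its intensities were 106.6, 391 and 1519 in WT A to C and 74.4, 148, 176 and 32.9 in T-ETV1 A to D. T-ETV1 B and C lay above WT A, so the groups overlapped, and WT C alone was above all other arrays by a wide margin. The difference was -1.97 ± 0.89 (SE; adjusted p = 0.822), and it was -1.04 without WT C and -1.31 without both C arrays.

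Cnn1 encodes calponin, which restrains the myosin motor and belongs to the same protein family as transgelin. It was near the bottom of the arrays, with 1.0, 3.42 and 37.9 in WT A to C and 1.88, 8.62, 24.2 and 3.86 in T-ETV1 A to D. The 2 arrays with replicate letter C were the highest in each group, and the groups overlapped almost entirely. The difference of -0.10 ± 0.47 (SE; adjusted p = 0.989) turned to 0.42 without WT C, to 0.18 without both C arrays and to 0.04 after median centring.

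Synpo2 encodes synaptopodin 2 (myopodin), an actin-bundling protein of muscle that sits at the Z disc and at dense bodies. Its highest probe set gave 33.0, 36.9 and 108.6 in WT A to C and 8.16, 19.5, 17.4 and 12.1 in T-ETV1 A to D. The groups did not overlap, and here T-ETV1 C was not the highest T-ETV1 array. The difference was -1.20 ± 0.35 (SE; adjusted p = 0.731), but the 4 probe sets of this gene went different ways. A second one had an intensity of 148 on T-ETV1 C, higher than the 55.5 on WT C, and a difference of 0.23 ± 0.84, and the mean of all 4 probe sets differed by -0.32. Synpo2 differed by -0.76 without WT C and by -0.82 without both C arrays.

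Des encodes desmin, the intermediate filament of muscle cells that is also found in pericytes. Its higher probe set was at 15.1, 11.6 and 163.7 in WT A to C and at 2.35, 2.90, 12.7 and 3.80 in T-ETV1 A to D. Only WT C was above the array's median, and T-ETV1 C lay between WT A and WT B. The difference of -1.35 ± 0.66 (SE; adjusted p = 0.835) was -0.47 without WT C and -0.62 without both C arrays, and the lower probe set had a difference of 0.19 ± 0.27 with no intensity above 21.9.

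Mustn1 encodes a small nuclear protein first described in the musculoskeletal system. It had 84.6, 100.2 and 293 in WT A to C and 16.2, 28.0, 85.4 and 16.5 in T-ETV1 A to D. T-ETV1 C lay just above WT A, which was the only overlap between the groups. The difference was -1.72 ± 0.55 (SE; adjusted p = 0.758), and within the replicate letters it was -1.64 for A, -1.40 for B and -1.61 for C, the most even values of the 7 genes with a mean difference under -1. Mustn1 differed by -1.22 without WT C and by -1.59 without both C arrays.

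Pdgfrb encodes the receptor through which platelet-derived growth factor B, released by endothelium, recruits pericytes and vascular smooth muscle. Its higher probe set had 67.8, 91.9 and 305 in WT A to C and 12.6, 4.86, 8.51 and 13.8 in T-ETV1 A to D. The groups did not overlap, and T-ETV1 C, the highest T-ETV1 array for Acta2 and Myl9, was in the middle of its group here. The log2 values averaged 7.16 ± 1.03 (SD, n = 3) on the WT arrays against 4.68 ± 0.23 (SD, n = 4) on the T-ETV1 arrays, and the difference was -2.47 ± 0.45 (SE; adjusted p = 0.581), the smallest p of the 10 genes. The second probe set gave 46.2, 40.1 and 135 in WT and 23.9, 3.58, 17.05 and 19.96 in T-ETV1, also without overlap, with a difference of -1.38 ± 0.41 (SE; adjusted p = 0.770 over all probe sets). Pdgfrb was thus low on all 4 T-ETV1 arrays with both of its probe sets, and it differed by -1.89 without WT C, by -2.45 without T-ETV1 C and by -1.86 without both.

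In 3 of the 10 genes (Myl9, Synpo2 and Pdgfrb) all T-ETV1 arrays were under all WT arrays, compared with 3.9% of all genes. A log2 difference under -1 was seen in 7 of the 10 and in 4.67% of all genes. Without WT C and T-ETV1 C the groups did not overlap in 6 of the 10, Acta2, Myl9, Des, Synpo2, Pdgfrb and Mustn1, beside 15.1% of all genes. Even then none of the 10 passed: the smallest adjusted p was 0.0613 (Myl9), followed by 0.074 (Pdgfrb) and 0.0783 (Mustn1), while 0.374% of all genes passed. Without T-ETV1 C alone 0.148% of all genes passed and again none of the 10, with 0.101 for Myl9.

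Arrays of equal letter in the 2 groups were taken as pairs because of correlations in these same data, as described with the processing. Within the pairs T-ETV1 was under WT in 7 of the 10 genes for letter A, in 9 for B and in 10 for C, compared with 51.9%, 51.5% and 55.8% of all genes. The count for C was bound to be 10, since WT C was the highest of all arrays in all 10 genes. Of the 10 genes 7 were lower in all 3 pairs, beside 16.7% of all genes. The exceptions were Cnn1, Myh11 and Mylk, with differences of 0.07, 0.14 and 0.18 for letter A. The largest difference within a pair was -3.88 for Myl9 in letter B, and Pdgfrb had -1.55, -2.37 and -3.71 for A, B and C. With the letter as a block, 0% of all genes passed and none of the 10.

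Over the 20 probe sets, 15 had a lower mean in T-ETV1 and 5 a higher one, and in 5 the groups did not overlap with T-ETV1 lower, beside 3.87% of all probe sets. None passed with every probe set tested on its own (0% of 34945 did), and the smallest adjusted p of the 20 was 0.576. Of the 6 genes with several probe sets, Acta2 and Pdgfrb had a lower mean on all of them, and Myh11, Mylk, Des and Synpo2 had probe sets of both signs. The second probe set of Acta2, at 35.2, 11.9 and 38.4 in WT and between 1.55 and 4.12 in T-ETV1, was without overlap and without a high value on T-ETV1 C, unlike the first, which had 351 there. The third probe set of Acta2 had only -0.06 ± 0.14, with overlap and no intensity above 10.9. With the mean of its probe sets Acta2 differed by -1.40. In 8 of the 20 probe sets no array reached an intensity of 100.

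**Figure D2:**
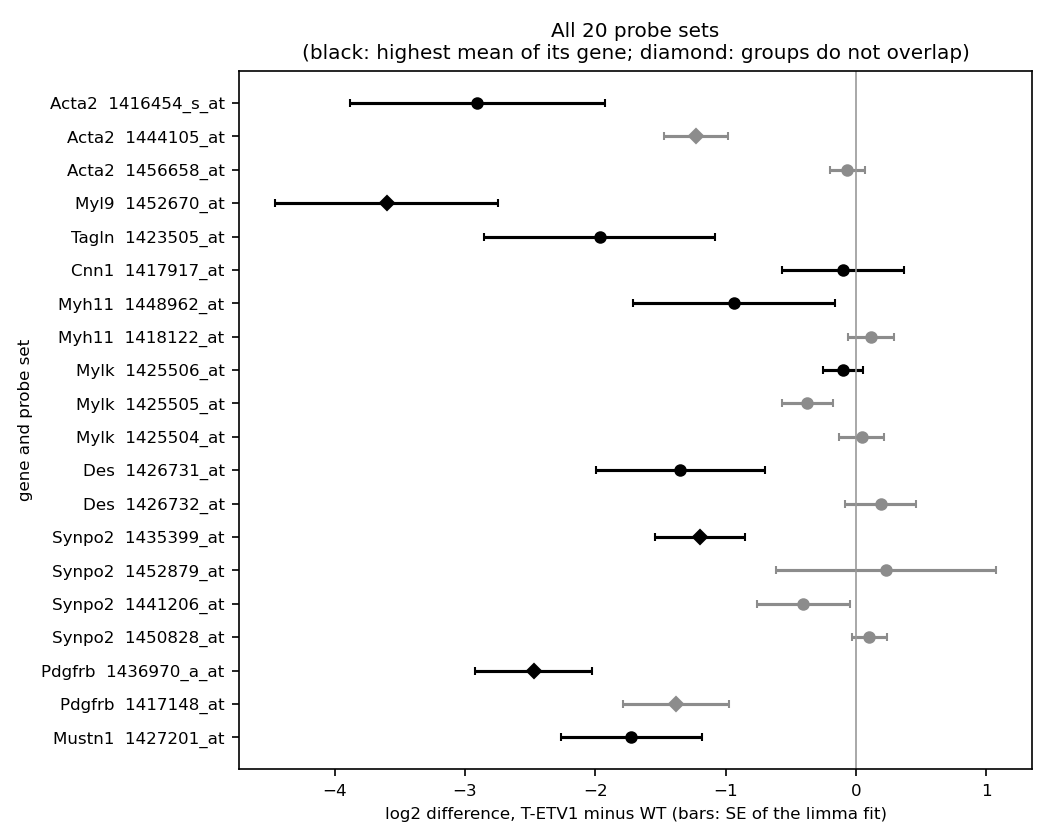
Log2 difference, T-ETV1 minus WT, of each of the 20 probe sets with the SE of the limma fit; black marks the probe set that stands for its gene, grey the others, and diamonds the 5 probe sets whose groups do not overlap. Myl9 at -3.60 and the highest probe sets of Acta2 at -2.90 and Pdgfrb at -2.47 lie furthest to the left. The SE reaches 0 for Cnn1, for 2 of the 3 Mylk probe sets and for grey probe sets of Acta2, Myh11, Des and Synpo2.

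Values also differed widely within a group. Within WT the highest intensity was 11.1 times the lowest for Acta2, 14.3 times for Tagln, 13.2 times for Myh11 and 14.2 times for Des, but 4.49 times for Pdgfrb and 1.29 times for Mylk. For Cnn1 it was 37.9 times the lowest, which was an intensity of 1.0 on WT A. T-ETV1 C exceeded the mean of T-ETV1 A, B and D by 2.65 (log2) for Acta2, 2.68 for Myl9, 1.95 for Myh11 and 1.5 for Mustn1. For Pdgfrb and Mylk the same comparison gave -0.09 and -0.16, and for Synpo2 0.21. Acta2, Myl9, Myh11 and Mustn1 were thus high on T-ETV1 C next to its group, and Pdgfrb was not. As a description over the 7 arrays, which share their grouping and the high C arrays, the median Pearson correlation of the 45 gene pairs was 0.837. The median of a gene's correlations with the others was lowest for Mylk (0.376) and Cnn1 (0.675) and highest for Synpo2 (0.894).

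Other genes of the contractile apparatus, from a list of 28 genes of which 27 were measured, held large and small differences. Of these 20 had a lower and 7 a higher mean in T-ETV1 (18 and 19 lower after median centring and quantile normalization), the median difference was -0.23, none passed and in none did the groups separate. Pdlim3, a PDZ and LIM domain protein of the actin cytoskeleton, had -1.41 ± 0.40 (adjusted p = 0.716), and Cald1, caldesmon, an inhibitor of the actin-activated myosin motor, had -2.55 ± 0.98 (0.799). Mrvi1, a target of cGMP-dependent kinase that lowers calcium release, had -1.16 ± 0.46 (0.804), and the potassium channel gene Kcnma1 had 0.26 ± 0.12 (0.823). Tpm2, a tropomyosin gene named after its value was seen, had -2.16 ± 1.22 (0.865). Without WT C the list had 16 lower means and a median of -0.08, and without both C arrays 15 and -0.13. Cald1 followed the pattern of Acta2 in being high on WT C (1183) and on T-ETV1 C (493) next to 188, 11.7 and 64.1 on T-ETV1 A, B and D.

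The list of transcription factors and cofactors around SRF and myocardin holds activators of contractile genes and also Klf4, a repressor of them. Of 10 measured, 7 had a lower mean and 3 a higher one (4 lower after median centring), with a median of -0.06 and none past the test. Foxf1, a factor of visceral mesenchyme, had -0.95 ± 0.43 (adjusted p = 0.822) and Gata6 had -0.49 ± 0.22 (0.822), the latter with groups that did not overlap at intensities under 30. Mef2c, an SRF partner in muscle, had -1.52 ± 1.12 (0.882) and Fhl2, a LIM domain cofactor, 0.19 ± 0.32 (0.959). Over the 7 arrays Foxf1 and Mef2c had Pearson's r of 0.965 and 0.914 with the mean profile of the 10 genes, and the other 8 had between -0.532 and 0.752. Without WT C 3 of the 10 had a lower mean, with a median of 0.10. Myocd and Srf, chosen for display after their values were seen, encode the 2 central regulators. Myocd was at 115, 56.6 and 21.8 in WT A to C and at 24.4, 394, 11.3 and 252 in T-ETV1 A to D, so that its lowest value in each group was on array C, where Acta2 was highest. Srf was at 469, 809 and 1637 in WT and at 582, 1444, 684 and 424 in T-ETV1.

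Of 15 other genes of mural cells, as pericytes and vascular smooth muscle are called together, 13 were measured, 9 with a lower and 4 with a higher mean, and the median was -0.32. In 3 of them the groups did not overlap, with T-ETV1 lower, beside 3.9% of all genes, and none passed. Without WT C again 9 had a lower mean, with a median of -0.12, and without both C arrays 9 with -0.31. Angpt1, the angiopoietin that mural cells send to the endothelial receptor Tek, had 193, 81.9 and 273 in WT and 16.2, 13.4, 13.3 and 40.2 in T-ETV1. Its difference of -2.35 ± 0.42 (SE; adjusted p = 0.581) was close to that of Pdgfrb, and like Pdgfrb it was not high on T-ETV1 C. Ndufa4l2, a pericyte-enriched mitochondrial protein, had -0.63 ± 0.11 (adjusted p = 0.581) at intensities of at most 20.7, Cspg4, the proteoglycan NG2 of pericytes, -0.40 ± 0.15 (0.792), and Abcc9, the sulfonylurea receptor subunit of vascular potassium channels, -2.74 ± 1.07 (0.804). Unlike Pdgfrb, Abcc9 was at 174 on T-ETV1 C and 130 on T-ETV1 D, next to 3.58 and 1.53 on T-ETV1 A and B. The 4 genes with a higher mean, named after their values were seen, were Anpep (0.52 ± 0.50), Notch3 (0.18 ± 0.33), Cox4i2 (0.16 ± 0.28) and Heyl (0.05 ± 0.24). Rgs5, also named afterwards, had -1.04 ± 1.17 (adjusted p = 0.932) with overlapping groups. It was at 69.1, 400 and 97.4 in WT A to C and at 8.99, 4.96, 184 and 325 in T-ETV1 A to D.

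Ligands of the receptor encoded by Pdgfrb are given here, each by its own values. Pdgfb, its main ligand, was at 6.71, 11.1 and 163 in WT A to C and between 4.36 and 22.5 in T-ETV1, under 16 on 5 of 7 arrays, a difference of -0.91 ± 0.73 (adjusted p = 0.894). Pdgfd, another ligand of the same receptor, had 0.39 ± 0.20 (0.845) with 1943 to 2515 in WT and 2133 to 3493 in T-ETV1. Pdgfc and Pdgfa, ligands of the related alpha receptor, had -0.54 ± 0.37 and -0.42 ± 0.30. Of the 5 genes in this list, which also holds Pdgfra, 4 had a lower mean and none passed, and without WT C 2 had a lower mean.

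Genes of striated muscle were checked because Des, Mustn1 and Synpo2 are also muscle genes outside smooth muscle. The summed intensity of 15 such genes was between 478 and 599 in WT and between 491 and 634 in T-ETV1, and WT C, the highest array for Acta2, lay under T-ETV1 B and C here. Mylpf alone gave 242 to 251 of this sum in WT and 167 to 360 in T-ETV1. Actc1, Myh2, Tnnt3 and Casq1 were under 16 on every array. Of the 15 genes 9 had a lower mean and 6 a higher one (3 lower after median centring, 10 without WT C, 7 without T-ETV1 C), among them the myoglobin gene Mb with 0.69 ± 0.21 (adjusted p = 0.745) and the troponin gene Tnnt3 with -0.44 ± 0.14 (0.758), neither past the test. Ryr1, the calcium release channel, had -0.80 ± 0.53 and the titin gene Ttn -0.37 ± 0.35.

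Markers of other cell types were set beside Acta2 and Myl9, among them endothelial cells and leukocytes, against which the sort was gated by CD31 and CD45. All 12 endothelial markers had a lower mean in T-ETV1 (median -1.93, groups apart in 3), with a summed intensity of 2102 to 7643 in WT and 658 to 2882 in T-ETV1. For this list and those below, the share of all genes with a lower mean was 55.6%. The share with the groups apart and T-ETV1 lower was 3.9%. Plvap, a protein of endothelial diaphragms, had -2.60 ± 0.51, Ptprb, the endothelial receptor phosphatase, -2.73 ± 0.72 and the junction gene Cldn5 -2.56 ± 0.76. Without WT C 11 of the 12 had a lower mean (median -1.32), and without both C arrays 11 (-1.74). Plvap was at 6.43 on T-ETV1 C and so shared with Pdgfrb a low value there, while Cldn5 was at 222. All 12 fibroblast markers had a lower mean (median -1.85, groups apart in 4), with sums of 5989 to 33999 in WT and 2393 to 9818 in T-ETV1. Apod had -2.86 ± 0.68, Col3a1 -2.91 ± 0.84 and Col5a2 -1.81 ± 0.60. This list rested largely on WT C: without it 10 of 12 had a lower mean and the median was -0.42, and without both C arrays 12 and -0.75.

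All 10 basal markers had a lower mean (9 after median centring, median -1.57), with sums of 8791 to 23120 in WT and 3664 to 20495 in T-ETV1, where T-ETV1 C was the highest. Bcam had -1.45 ± 0.49, Lama3 -1.60 ± 0.65 and Krt14, the keratin of basal cells, -3.15 ± 1.47. Without WT C 8 of the 10 had a lower mean (median -1.34), and without both C arrays 10 (-1.84). Of 11 leukocyte markers 9 had a lower mean (8 after median centring, median -0.79). Cd52 was between 5751 and 9153 on every array and made up most of their sum except on the C arrays. The other 10 summed to 246, 428 and 25110 on WT A, B and C and to 651, 218.5, 9012 and 5195 on T-ETV1 A, B, C and D. Cd74 alone gave 5042 of the 5195 on T-ETV1 D, and 1376 of the 9012 on T-ETV1 C. Without WT C the direction of this list turned, with 1 of 11 lower and a median of 0.91, and without both C arrays 3 were lower, with 0.12. Coro1a had -1.91 ± 1.23, Cd79a -0.79 ± 0.69 and Csf1r, the macrophage growth factor receptor, -1.65 ± 1.81. All 4 Schwann cell markers measured had a lower mean, with Sox10 at -2.02 ± 0.90, Ngfr at -2.08 ± 0.94 and Cdh19 at -1.49 ± 0.80. Their sum was 274, 569 and 401 on WT A, B and C, between 18.7 and 21.5 on T-ETV1 A, B and D, and 669 on T-ETV1 C, above every WT array. All 4 stayed lower without WT C (median -1.74) and without both C arrays (-2.54). Of 8 luminal markers 5 had a lower mean (2 after median centring, 5 without WT C, 3 without both C arrays, median -0.01), with Epcam at -0.26 ± 0.14, Tmprss2 at -0.15 ± 0.19 and Krt8 at 0.05 ± 0.18. No marker of these 6 lists passed over all genes, none of them was under 16 on every array, and their part in the differences of Acta2, Myl9 and Pdgfrb was not tested.

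**Figure D3:**
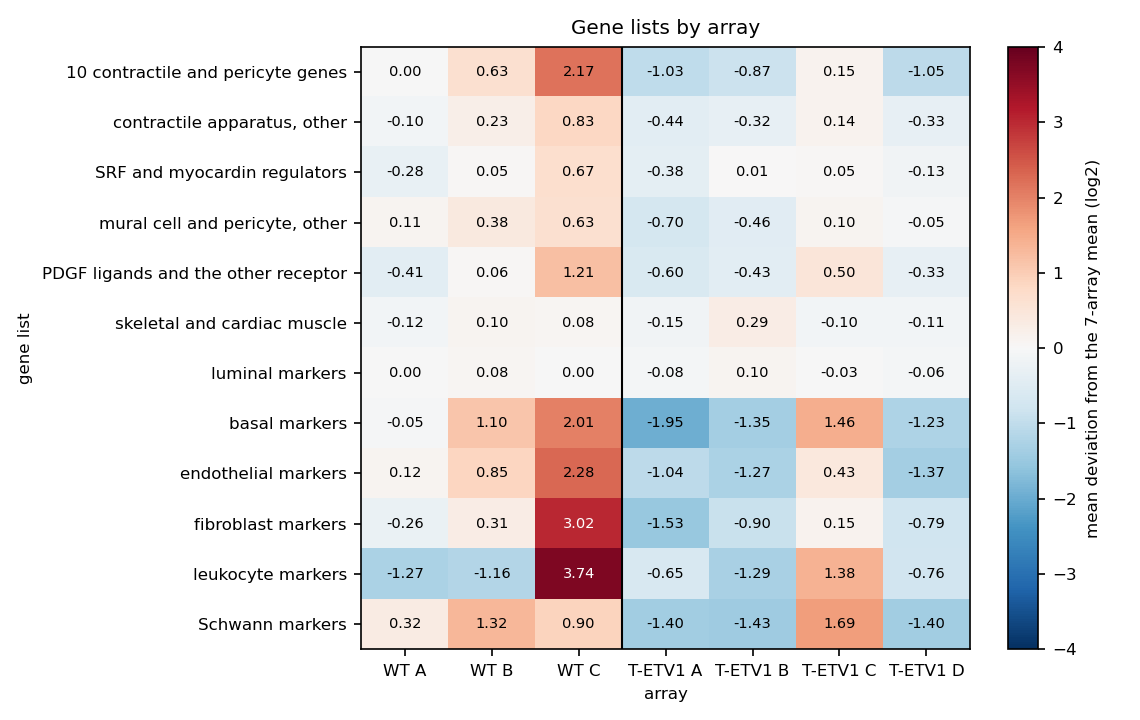
Mean deviation of each gene list from its 7-array mean (log2 scale, colour and number) on each array, WT to the left of the line and T-ETV1 to the right. The 10 contractile and pericyte genes run from 2.17 on WT C to -1.05 on T-ETV1 D, the endothelial and fibroblast markers follow a like order, and the luminal markers stay between -0.08 and 0.10.

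The mean deviation of the 10 genes was 0.00, 0.63 and 2.17 on WT A, B and C and -1.03, -0.87, 0.15 and -1.05 on T-ETV1 A, B, C and D. The genes whose values were most like this profile over the 7 arrays were sought among 18182 other genes, as a description, by Pearson's r. Of these 437 (2.4%) had an r above 0.9, including 7 of the 12 endothelial markers, 3 of the 12 fibroblast markers, 3 of the 10 basal markers, 3 of the 27 other contractile genes, 2 of the 10 regulators, 1 of the 11 leukocyte markers and 1 of the 15 striated muscle genes. There were none among the other mural genes, the PDGF genes and the luminal and Schwann markers. The 10 nearest named genes were Mgp (0.998), Cavin1 (0.996), C1qtnf1 (0.994), Rnf111 (0.989), Vwf (0.988), St3gal4 (0.987), Prkd3, Pfkp and Cdh13 (0.985 each) and Tie1 (0.984). Pearson's r does not weigh the size of a difference: Rnf111 differed by -0.31 and St3gal4 by -0.34, the latter at intensities of at most 22.5. Mgp, which encodes matrix Gla protein, was at 1117, 2188 and 7437 in WT and at 565, 607, 1467 and 521 in T-ETV1. Set against the mean of the other 9, the correlation was 0.978 for Acta2 and 0.976 for Mustn1, and 0.373 for Mylk. All of these values rest on 7 arrays, of which WT C is far above the others, and genes are not independent of each other.

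The CArG box is the SRF motif that opens with a pair of C, runs through A or T and closes with a pair of G. It was sought in the promoters of these genes because SRF is a known regulator of contractile genes. Whether SRF controls each of the 10 was not tested. Promoter windows of RefSeq (GRCm38.p6) from 250 bases before to 50 bases after a gene's start were at hand for 7 of the 10: Acta2, Cnn1, Des, Myl9, Mylk, Mustn1 and Synpo2. The motif reads the same on both strands. A full box was in the window of 1 of the 7, Myl9, and in 535 of 32851 windows of all genes (1.63%). A box with a single C or G among the A and T bases, a form added after the sequences were seen, was in the windows of Acta2 and Myl9 and in 8.5% of all windows. Acta2 and Myl9 were the only 2 of the 7 genes with a match of either form, beside 9.98% of all windows. The stretches around these boxes are shown on the gene's strand with the box in capitals. They lie at chr2:156775268-156775347 on the plus strand (Myl9, full box beginning 161 bases before the start), chr2:156775330-156775409 on the plus strand (Myl9, 99 bases), chr19:34255413-34255492 on the minus strand (Acta2, 84 bases) and chr19:34255374-34255442 on the minus strand (Acta2, 34 bases).
Myl9 full box: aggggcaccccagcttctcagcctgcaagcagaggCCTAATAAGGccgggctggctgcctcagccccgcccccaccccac
Myl9 second box: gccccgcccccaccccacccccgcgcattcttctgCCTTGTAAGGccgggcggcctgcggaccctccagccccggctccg
Acta2 first box: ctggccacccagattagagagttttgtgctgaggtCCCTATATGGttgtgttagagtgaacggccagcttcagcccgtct
Acta2 second box: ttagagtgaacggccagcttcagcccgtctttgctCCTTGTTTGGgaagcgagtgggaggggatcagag
A match describes the letters only, and the absence of a match in the other windows says nothing about SRF at these genes, whose boxes can lie outside the window.

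**Figure D4:**
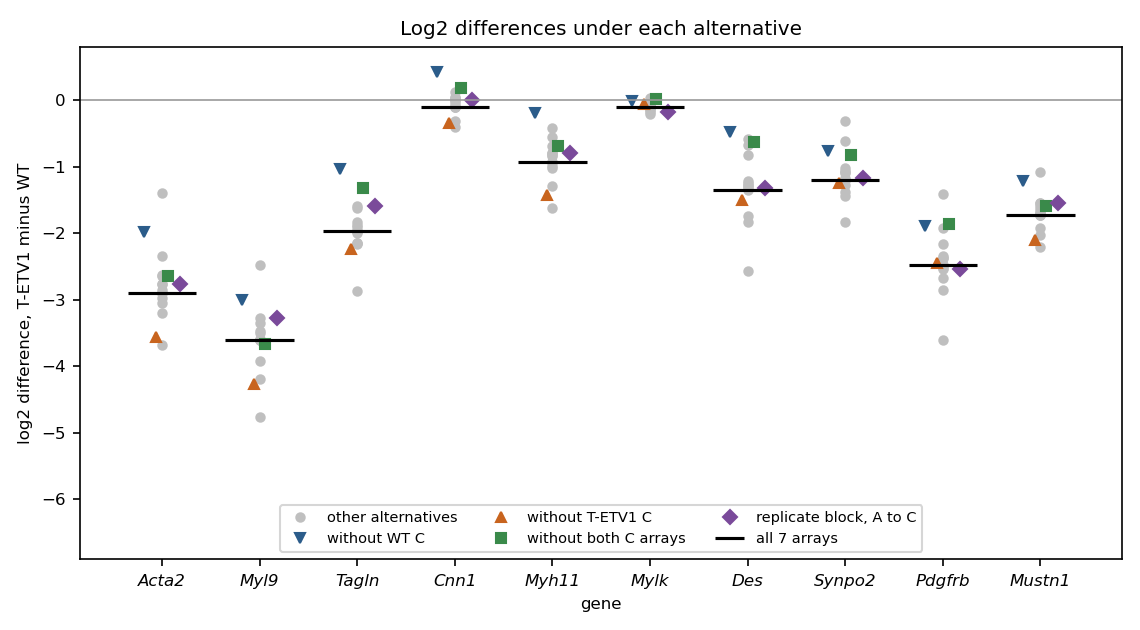
Log2 difference, T-ETV1 minus WT, of each of the 10 genes with all 7 arrays (black line) and under the alternatives: coloured marks leave out WT C, T-ETV1 C or both, or use the replicate letter as a block, and grey points are the other alternatives. Leaving out WT C moves the value towards 0 in 9 genes and past it in Cnn1, with Myl9 at -3.00 and Pdgfrb at -1.89. The move is bound to be upward, since WT C is the highest array in all 10 genes.

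Leaving out WT C moved the log2 difference up by 0.93 for Tagln, 0.92 for Acta2, 0.87 for Des and 0.74 for Myh11. The move was 0.60 for Myl9, 0.58 for Pdgfrb, 0.52 for Cnn1, 0.50 for Mustn1, 0.43 for Synpo2 and 0.08 for Mylk. All of these moves were bound to be upward, since WT C was the highest array in all 10 genes. Over the 10 genes the median difference was -0.90 without WT C and -1.80 without T-ETV1 C.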

How the data were processed

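Luminal cells were sorted, RNA was extracted with Trizol and amplified with a NuGEN kit, per the labels' protocols. The values deposited by the authors are intensities on a linear scale, and how they were summarised from the probes and scaled is not given in the sources used here. The number of arrays limits the precision, and the labels do not tie arrays to single mice, so that p-values measure the spread between these samples. Intensities were transformed as log2(intensity + 16) and kept as scaled, since array medians differed by at most 0.476, under the limit of 0.5. Of 45037 probe sets 34945 had 1 gene symbol in the platform annotation, 932 several and 9160 none listed. Symbols were updated through RefSeq (GRCm38.p6) for 34741. The probe set with the highest mean stood for each of 18193 genes.

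Each gene's difference (T-ETV1 minus WT) was fitted by lmFit and eBayes of limma 3.58.1 (R 4.3.3), with 6.67 degrees of freedom in all. Two-sided p-values were adjusted over all genes (Benjamini-Hochberg, threshold 0.05). The test was checked on values simulated for each gene independently. Such values lack the joint high levels of many genes on the C arrays, which the check therefore does not cover. The genes and lists were chosen with earlier results of these data known. The text names all 10 genes, up to 4 genes of each other list and up to 3 of each marker list by smallest unadjusted p, and the 10 genes nearest in pattern. Further genes of the lists were named after their values were seen. Deviations from the group means correlated at 0.281, 0.217 and 0.356 for the letter pairs A, B and C (limit 0.1), so the letters in the labels were taken as pairs, although WT A and T-ETV1 D also reached 0.187. Alternatives are given at the end.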

Additional observations from a re-analysis of the deposited data

Results flagged for a closer look

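With 4 T-ETV1 arrays, the gap between the highest or lowest array and its neighbour was set against the group's range for each of the 10 genes, and in 2 genes T-ETV1 C stood further from the others than Dixon's critical value for 4 samples allows. For Acta2 its log2 value was 8.52, next to 6.12 on the nearest array (ratio 0.858). For Des it was 4.84, next to 4.31 (ratio 0.830, barely past the limit). Chance alone gives such a gap in about 1 in 20 groups. The WT group of 3 arrays was too small for this check.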

How the results depend on the processing

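No alternative brought any of the 10 genes past the threshold, and in 160 of 168 gene values the direction was kept. It turned in 8. Cnn1 turned to 0.0249 with array weights, 0.0358 after median centring, 0.12 with a pseudocount of 1 and 0.18 without both C arrays. It ranged from -0.41 (without WT A) to 0.42 (without WT C) with 1 array left out, turning also without T-ETV1 A (0.05). Mylk turned to 0.0399 after median centring and 0.0239 without both C arrays. The cause was not tested. The median of the 10 genes lay between -2.18 (pseudocount of 1) and -0.67 (every probe set on its own, 20 values, where low probe sets count in full), and was -1.43 with the replicate block, which changed no call. It was -0.88 with a pseudocount of 64, -0.99 when a gene's probe sets were averaged and -1.07 without both C arrays. Without the lowest 30% of genes, Cnn1 and Des drop out. Genes past the threshold over all genes numbered 68 without both C arrays and between 0 and 27 with 1 array left out (27 without T-ETV1 C, 7 without WT C). Median centring moved the median of all genes from -0.03 to 0.11. The share with a lower mean went from 55.6% to 32.2%, and to 46% after quantile normalization. Relative to the median of all genes all 10 were lower with the deposited scaling and after quantile normalization. Median centring shifts every gene's difference by the same amount, so it could not change this count.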
